A study of Homo sapiens and Canis lupus familiaris with 27 samples.

Results

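RNA of PC-3 cells kept with PDA-66 for 24 h was compared with RNA of PC-3 cells kept with the same compound for 12 h, as a late against an early response. The 6 samples are the 3 PC-3 samples labelled with 24 h of PDA-66 (P24-1, P24-2 and P24-3) and the 3 labelled with 12 h (P12-1, P12-2 and P12-3), out of 26 samples of the series with counts and 27 in its labels. The study followed the indolylmaleimide PDA-66 in 3 lines of prostate carcinoma, PC-3 and LNCaP of human and CT1258 of canine origin. All 6 samples were exposed to 15 µM PDA-66, so that they differ by the hours of exposure. PC-3 is an established line from a bone marrow metastasis of a prostate adenocarcinoma, and its cells are known to lack functional p53. The PC-3 controls were kept in 0.15% DMSO for 24 h. The authors excluded a PC-3 control as an outlier, and the 2 with counts (PD2 and PD3) were used here. Their levels are given beside the others as a description, and no test rests on them. In RNA of whole cultures, fewer cells that express a gene and less RNA of it per cell cannot be told apart. No control of 12 h is in the labels, so that the hours in culture and the hours with PDA-66 cannot be told apart.

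PDA-66 is described as a compound that disturbs microtubules, the tubes of alpha and beta tubulin that form the mitotic spindle. In cells with a disturbed spindle the spindle assembly checkpoint holds chromosomes from separating, and cells may die in mitosis or leave it without dividing. Cytosolic and endoplasmic reticulum chaperones, which fold proteins and rise under protein stress, and cytokine and matrix genes of stressed epithelial cells are among the genes that may follow.

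Total counts lay between 14650839 and 18091755 per sample, and 16726 to 17064 genes of 23708 had a count. The 10 genes with the most counts took 3.47 to 4.15% of a sample. Replicates differed by more than counting error in every pair, with a chi-square per degree of freedom of 1.92 to 4.63 between the 12 h samples and of 3.12 between P24-1 and P24-2. P24-3 stood apart, with 16 against P24-1 and 9.15 against P24-2. When genes were divided by GC content into 4 bins, those of the lowest bin lay at a median of -0.15 (log2) against the mean of the 24 h group in P24-3, and those of the highest bin at 0.147. The biological coefficient of variation, the spread between replicates beyond counting error, was 0.0695 with all 6 samples and 0.0433 without P24-3. Counts of called genes over all genes, and at 0.05 over each list where they moved by over 1.5 times, are therefore given with and without it.

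The 6 epithelial markers EPCAM, CDH1, KRT7, KRT8, KRT18 and KRT19 were all detected, and summed to 664 to 732 CPM, the counts scaled to a common library total, after 12 h and 705 to 918 after 24 h. Of the 11 prostate lineage markers, KLK2 and KLK4 had 0 counts in the 6 samples and KLK3 had 1 count in all. Their sum rested mostly on HOXB13, a prostate transcription factor, and was 277 to 297 CPM after 12 h and 448 to 487 CPM after 24 h. The 9 leukocyte markers summed to 72.9 to 79.2 and 70.8 to 82.7 CPM, nearly all of it CD68, with CD3D at 0. The 8 fibroblast markers summed to 12.9 to 15.9 and 19.6 to 25.5 CPM, and the 5 endothelial markers to 24 to 24.7 and 48.6 to 53, mostly KDR. All 4 erythroid markers were at 0 counts.

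With edgeR's quasi-likelihood test, 479 of 13300 genes differed between 24 h and 12 h at an adjusted p under 0.001, the threshold of the study, which is 3.6% of the genes tested. Of these, 258 were higher after 24 h (1.94%) and 221 lower (1.66%). The log2 fold change of these genes lay between -2.82 and 2.39 with a median size of 0.77, and 123 of them changed by at least 1 on the log2 scale (71 higher and 52 lower). At an adjusted p under 0.05, which was used to count members of gene lists, 2740 genes or 20.6% were called, with 1439 higher (10.8%) and 1301 lower (9.78%). The 3 samples of one time did not overlap with those of the other for 5028 genes (37.8%), among them each of the 479. Without P24-3, 1853 of 13458 genes (13.8%) were called at 0.001 and 4675 (34.7%) at 0.05, with 17.1% higher and 17.6% lower, and at 0.001 each of the 479 was among them with the same direction. Leaving out P24-2 gave 163 genes, P12-3 165, P12-2 211 and P12-1 230, and 151 genes (83 higher and 68 lower) were called in all 6 such fits. A fit that also held the DMSO samples called 194 genes.

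**Figure D1:**
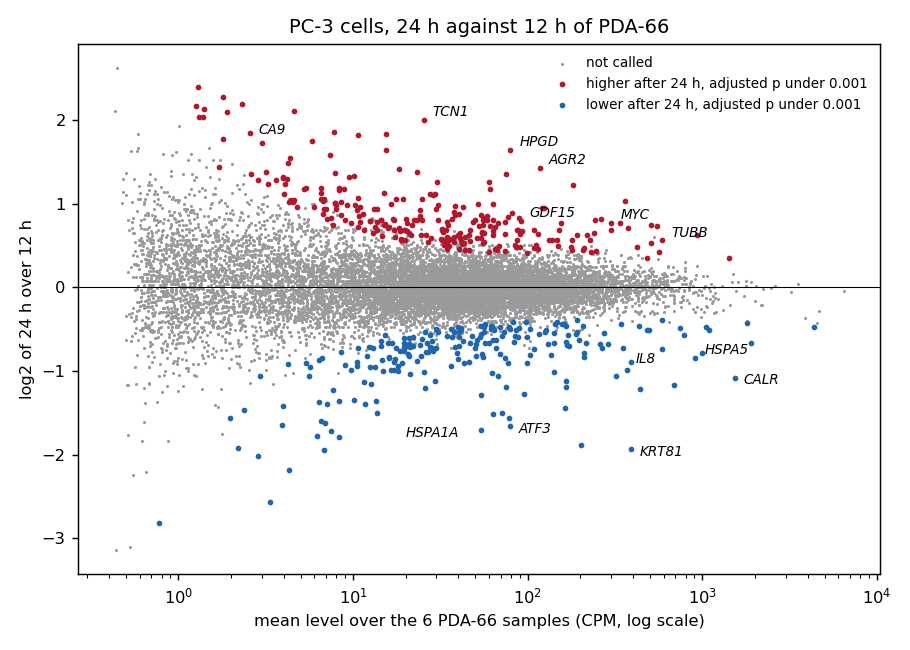
Log2 fold change of 24 h over 12 h of PDA-66 in PC-3 (vertical axis) against the mean level over the 6 samples (CPM, horizontal log axis) for the 13300 genes tested, one point per gene. Red points are the 258 genes higher and blue points the 221 genes lower after 24 h at an adjusted p under 0.001; KRT81 lies low at -1.93 and TCN1 high at 2.00.

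Among genes of at least 10 CPM, the 12 that fell most had been higher after 12 h than in either DMSO sample. The same 12 h samples enter the choice of these genes and the comparison with DMSO, which favours this order. No test of it is given. KRT81 (chr12:52679697-52685318, GRCh37, the build of the mapped reads), a hair keratin, was at 579, 649 and 624 CPM after 12 h and at 141, 153 and 191 CPM after 24 h, while the DMSO samples had 10.8 and 7.18 CPM. The groups lay far apart, with a log2 fold change of -1.93 ± 0.099 (SE, adjusted p = 1.97e-07 by edgeR), and its level after 24 h was still above both DMSO samples. ATF3, a stress-induced transcription factor, fell from 126, 118 and 116 CPM to 37.1, 41.8 and 35.1 CPM, with 16.9 and 45.6 CPM in DMSO (-1.66 ± 0.079). Thus its 24 h samples lay between the DMSO samples.

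Secreted and extracellular proteins made up much of the rest of the 12 genes that fell most among those of at least 10 CPM. SERPINB2, an inhibitor of urokinase, was at 108, 106 and 102 CPM after 12 h and 36.9, 35.6 and 39.3 CPM after 24 h (-1.50 ± 0.07). SRGN, the proteoglycan serglycin, went from 121, 112 and 114 CPM to 33.2, 42.7 and 41.3 CPM (-1.56 ± 0.091). The transglutaminase TGM2 (-1.50), the collagen chain COL6A3 (-1.36) and the activin subunit INHBA (-1.35) fell as well, and so did the transcript LOC646329 (-1.40). SERPINB7, another clade B serpin, was at 79.8 to 86.1 CPM after 12 h and at 35.9 to 45.8 CPM after 24 h, with 5.38 and 5.63 CPM in DMSO (-1.03 ± 0.088).

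Among genes of at least 10 CPM, the 12 that rose most were lower after 12 h than in both DMSO samples. This order too is favoured by the choice, since the 12 h samples enter both comparisons, and it was not tested. TCN1 (chr11:59620273-59633962), a cobalamin-binding protein of secretory epithelia, was at 11.5, 10.3 and 8.67 CPM after 12 h and at 42.4, 41.5 and 37.9 CPM after 24 h, with 127 and 81.9 CPM in DMSO. Its log2 fold change was 2.00 ± 0.11 (adjusted p = 2.5e-07 by edgeR). AGR2, a protein disulfide isomerase of secretory cells, rose from 68.9, 58.8 and 63.3 CPM to 177, 178 and 158 CPM (1.43 ± 0.078), beside 978 and 593 CPM in DMSO. HPGD, which inactivates prostaglandins, was at 40.5, 35.8 and 39.4 CPM and then at 135, 129 and 95.7 CPM (1.64 ± 0.12), with 221 and 280 CPM in DMSO. All 3 genes stayed below both DMSO samples after 24 h.

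The same order was seen in the other genes of this kind. VAV3, a guanine nucleotide exchange factor, was at 7.37 to 7.61 CPM after 12 h, 21.9 to 24.4 CPM after 24 h and 40.4 and 51.5 CPM in DMSO (1.64 ± 0.095). SCARA5, a ferritin receptor, was at 6.31 to 7.32, 19.6 to 29.9 and 95.4 to 132 CPM in the same order (1.83 ± 0.15). The steroid dehydrogenase HSD17B2 (1.41), thyroglobulin TG (1.36), the protease inhibitor SPINK5 (1.33) and the teneurin TENM4 (1.26) also rose, each to a level below both DMSO samples. The Fc-binding mucosal protein FCGBP rose by 1.49 to 5.15 to 6.95 CPM, beside 123 and 37.8 CPM in DMSO, and was not called in the fit with the DMSO samples (adjusted p = 0.0538 by edgeR). The Fc receptor FCGR2A (1.82) has near-identical copies and titin TTN (1.38) an opposite-strand overlap of 17.7% of its exon bases, so that the share of reads from these genes is uncertain.

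**Figure D2:**
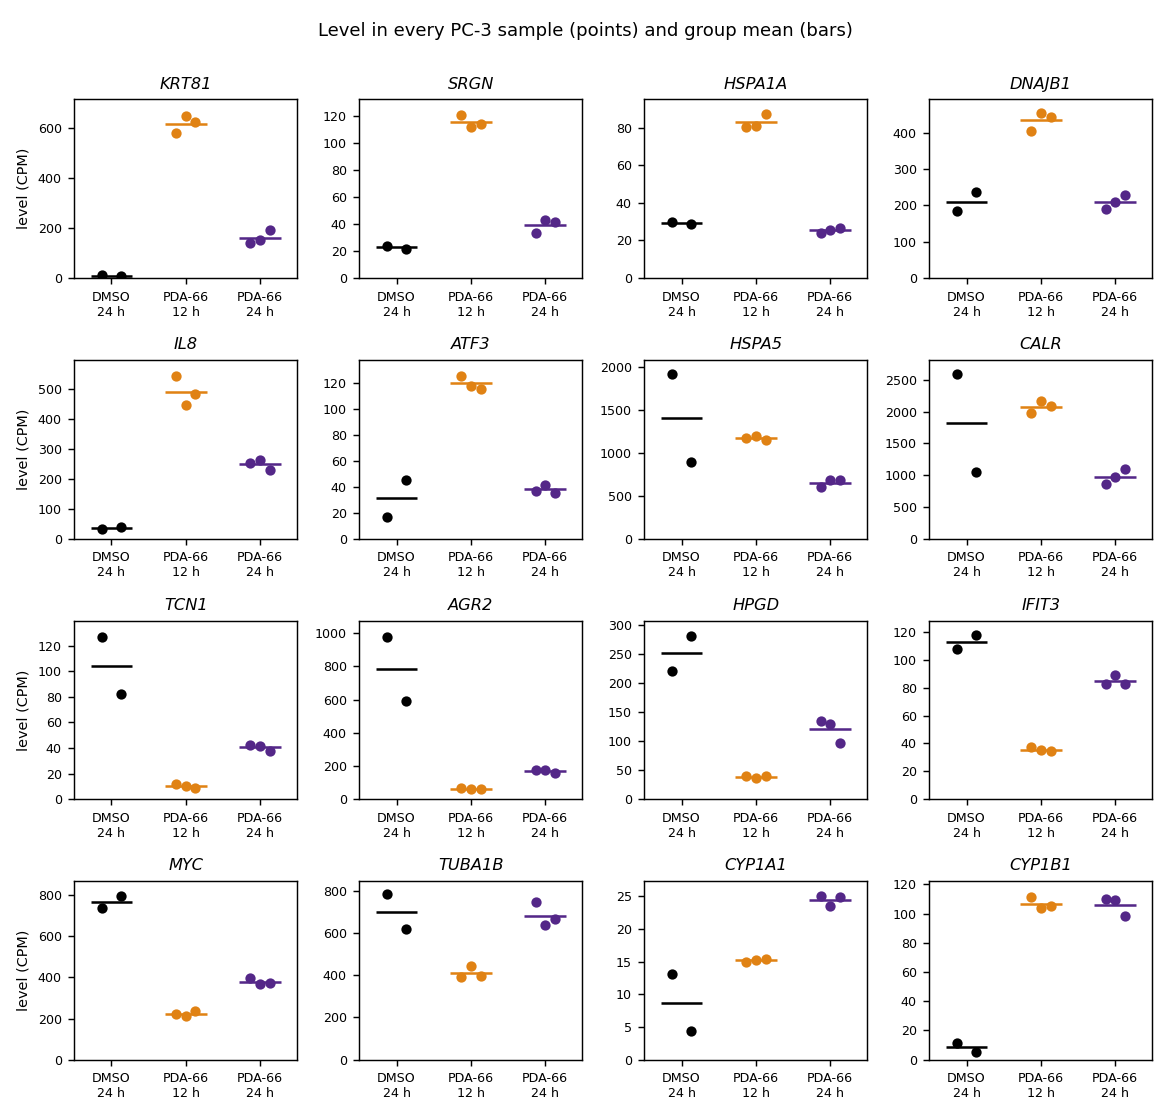
Level (CPM, linear axes from 0) of 16 genes in each PC-3 sample, with 2 DMSO samples in black, 3 samples of 12 h in orange and 3 of 24 h in violet, and bars at the group means. The 12 h and 24 h points do not overlap in any gene but CYP1B1, which stayed near 106 CPM in both groups, while KRT81, SRGN, IL8, ATF3 and the chaperones are lower after 24 h and TCN1, AGR2, HPGD, IFIT3, MYC, TUBA1B and CYP1A1 higher.

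Heat shock chaperones were lower after 24 h. Of 33 members tested, 15 fell and 0 rose at an adjusted p under 0.05 (45.5% called, beside 20.6% of all genes), 7 of them at 0.001, and the median log2 fold change of the list was -0.21, while that of all genes was -0.003. HSPA1A (chr6:31783320-31785723), the inducible HSP70, was at 80.4, 81.0 and 87.3 CPM after 12 h and at 24.0, 25.7 and 26.8 CPM after 24 h, with 30.0 and 28.6 CPM in DMSO. Its log2 fold change was -1.70 ± 0.077 (adjusted p = 1.34e-07 by edgeR), and the 24 h samples lay just under the DMSO samples. Its near-identical copy HSPA1B fell by 1.51 ± 0.092, and reads of the pair could be split between them. The HSP40 co-chaperone DNAJB1 was at 404, 454 and 444 CPM and then at 190, 208 and 227 CPM, a range that took in part of the DMSO range of 183 and 237 CPM (-1.06 ± 0.075).

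The constitutive HSP70 protein HSPA8 was at 2333, 2397 and 2235 CPM after 12 h and at 1217, 1497 and 1663 CPM after 24 h, with 1050 and 1157 CPM in DMSO. It changed by -0.67 (adjusted p = 0.000332 by edgeR), with P24-3 nearest to the 12 h samples. HSPA2 (-0.66), DNAJB4 (-0.70), the HSP110 protein HSPH1 (-0.44), DNAJA1 (-0.40) and the HSP90 co-chaperone CHORDC1 (-0.39) also fell. The HSP90 proteins themselves changed less, HSP90AA1 by -0.28 and HSP90AB1 by -0.21. HSP90AA1 remained at 3896 to 4484 CPM, above the 2465 CPM of each DMSO sample. Chaperonins and several co-chaperones were not called, such as HSPD1 (-0.16), HSPE1 (0.02), AHSA1 (0.09) and CDC37 (-0.01).

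Heat shock genes are known for inverted repeats that heat shock factor binds, and the stretches before 3 of these genes are shown because they hold them. The letters searched were GAANNTTC or TTCNNGAA, on both strands, in 250 bases before and 50 after each gene's start (RefSeq, build GRCh38.p14, not the GRCh37 of the gene positions), and neighbouring matches may overlap. Of 30 members with such a promoter, 10 held a match (33.3%), as did 13.7% of 27305 promoters, and 6 of the 15 members that fell were among them. The windows of HSPA1A and HSPA1L overlap on opposite strands, and the match of both is the same site. The 250 bases before the start of HSPA1A (chr6:31815293-31815542, plus strand), HSPA8 (chr11:123062137-123062386, minus strand) and CHORDC1 (chr11:90223050-90223299, minus strand) hold 1, 4 and 6 matches, marked in capitals.
HSPA1A: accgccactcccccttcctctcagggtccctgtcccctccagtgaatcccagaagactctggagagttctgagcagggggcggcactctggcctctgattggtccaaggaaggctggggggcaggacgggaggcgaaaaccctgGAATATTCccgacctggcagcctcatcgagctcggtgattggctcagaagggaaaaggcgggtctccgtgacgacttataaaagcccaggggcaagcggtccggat
HSPA8: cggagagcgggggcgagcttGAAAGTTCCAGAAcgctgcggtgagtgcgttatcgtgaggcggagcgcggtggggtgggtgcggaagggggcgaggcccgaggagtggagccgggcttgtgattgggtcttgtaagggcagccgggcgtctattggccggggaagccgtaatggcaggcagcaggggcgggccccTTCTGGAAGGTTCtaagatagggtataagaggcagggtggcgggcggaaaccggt
CHORDC1: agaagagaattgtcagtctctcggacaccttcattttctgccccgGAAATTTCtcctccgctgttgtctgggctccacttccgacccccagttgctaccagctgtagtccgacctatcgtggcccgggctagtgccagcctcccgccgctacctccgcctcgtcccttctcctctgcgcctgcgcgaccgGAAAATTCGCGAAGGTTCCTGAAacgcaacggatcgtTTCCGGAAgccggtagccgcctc
Of these 3 genes, HSPA1A with 1 match changed by -1.70 and CHORDC1 with 6 by -0.39. HSPB8, with 2 matches in its promoter, changed by -0.02 (adjusted p = 0.905 by edgeR).

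Endoplasmic reticulum chaperones were lower after 24 h as well. Of 25 members, 14 fell and 0 rose at 0.05 (56% called), 10 of them at 0.001, with a list median of -0.41. The calcium-binding chaperone CALR (chr19:13049392-13055303) was at 1974, 2169 and 2091 CPM after 12 h and at 855, 967 and 1101 CPM after 24 h, which is -1.09 ± 0.082 on the log2 scale (adjusted p = 4.2e-06 by edgeR). HSPA5, the lumenal HSP70 BiP, was at 1170, 1193 and 1149 CPM and then at 596, 683 and 680 CPM (-0.84 ± 0.064). The DMSO samples differed widely in these genes, with 2595 and 1044 CPM for CALR and 1917 and 890 CPM for HSPA5, so that they give no firm level. MANF (-0.91), HSP90B1 (-0.79), PDIA4 (-0.72) and PDIA3 (-0.68), all lumenal folding factors, fell too, as did the transcription factor DDIT3 (-0.42). Members of the degradation arm were not called, with 0.02 for HERPUD1, 0.04 for EDEM1 and 0.11 for SYVN1. In the fit that also held the DMSO samples, 6 of 25 members of this list and 8 of 33 of the heat shock list fell at 0.05. That fit called 1390 of all genes at 0.05, beside 2740 in the fit without them.

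Cytokine and chemokine genes formed the list with the lowest median of the 22, -0.60. Of 28 members, 17 fell and 1 rose at 0.05 (64.3% called), and 13 fell at 0.001. IL8 (CXCL8, chr4:74606236-74609433), the neutrophil chemokine, was at 543, 447 and 485 CPM after 12 h and at 253, 262 and 230 CPM after 24 h, beside 30.8 and 37.9 CPM in DMSO (-0.99 ± 0.078, adjusted p = 6.44e-06 by edgeR). Its level after 24 h was lower than after 12 h in every sample and higher than in both DMSO samples. IL11, a cytokine of the IL6 family, was at 15.1, 17.2 and 19.9 CPM and then at 7.34, 7.75 and 8.37 CPM (-1.16 ± 0.12). The chemokine CXCL3 (-1.60 ± 0.13), IL1A (-1.72), IL6 (-1.43), CXCL2 and CXCL1 (-0.93) fell, and so did the NF-kappaB feedback gene TNFAIP3 (-1.01) and the subunit RELB. NFKBIZ, an NF-kappaB cofactor, was the member that rose (0.62, adjusted p = 0.000258 by edgeR), from 45.9 to 55.3 CPM to 73.7 to 80.8 CPM. LIF (0.06), TGFA (-0.08) and NFKBIA (0.07) were not called.

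Genes of the extracellular matrix, its proteases and YAP targets were mostly lower. Of 37 members, 18 fell and 4 rose at 0.05 (59.5% called), with 13 and 1 at 0.001 and a median of -0.29, which was -0.46 without P24-3. The collagen COL12A1 was at 215, 243 and 220 CPM after 12 h and then at 96.9, 106 and 108 CPM (-1.12 ± 0.072), still above 20.6 and 9.83 CPM in DMSO. The YAP target ANKRD1 (-2.18), the receptor kinase AXL (-0.78), tenascin TNC (-0.72) and the metalloprotease MMP14 (-0.55) fell. The integrin chain ITGB4 rose by 0.82 and the laminin chain LAMA3 by 0.26, as did the matrix protein SPARC (0.88 ± 0.22, adjusted p = 0.013 by edgeR), whose level of 2.37 to 2.87 CPM remained far under 44.7 and 33.4 CPM in DMSO.

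Keratins moved in both directions. Of 15 tested, 6 fell and 5 rose at 0.05, with 5 and 2 at 0.001, and 73.3% were called. The hair keratins KRT81, KRT86 (-1.95 ± 0.15), KRT83 (-1.78) and KRT34 (-0.99) fell, of which KRT81, KRT83 and KRT86 have near-identical sequences that reads may not tell apart. KRT7 of simple epithelia fell by 1.65. KRT6B, a keratin of stressed squamous epithelia, was at 1.93, 1.69 and 1.53 CPM after 12 h and at 7.46, 6.77 and 8.10 CPM after 24 h (2.11 ± 0.16, adjusted p = 3.72e-06 by edgeR), close to 10.5 and 7.32 CPM in DMSO. KRT20 (0.93), KRT15 (0.72), KRT75 (0.41) and KRT18 (0.40) rose, and KRT8 (-0.16) and KRT19 (0.20) were not called.

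**Figure D3:**
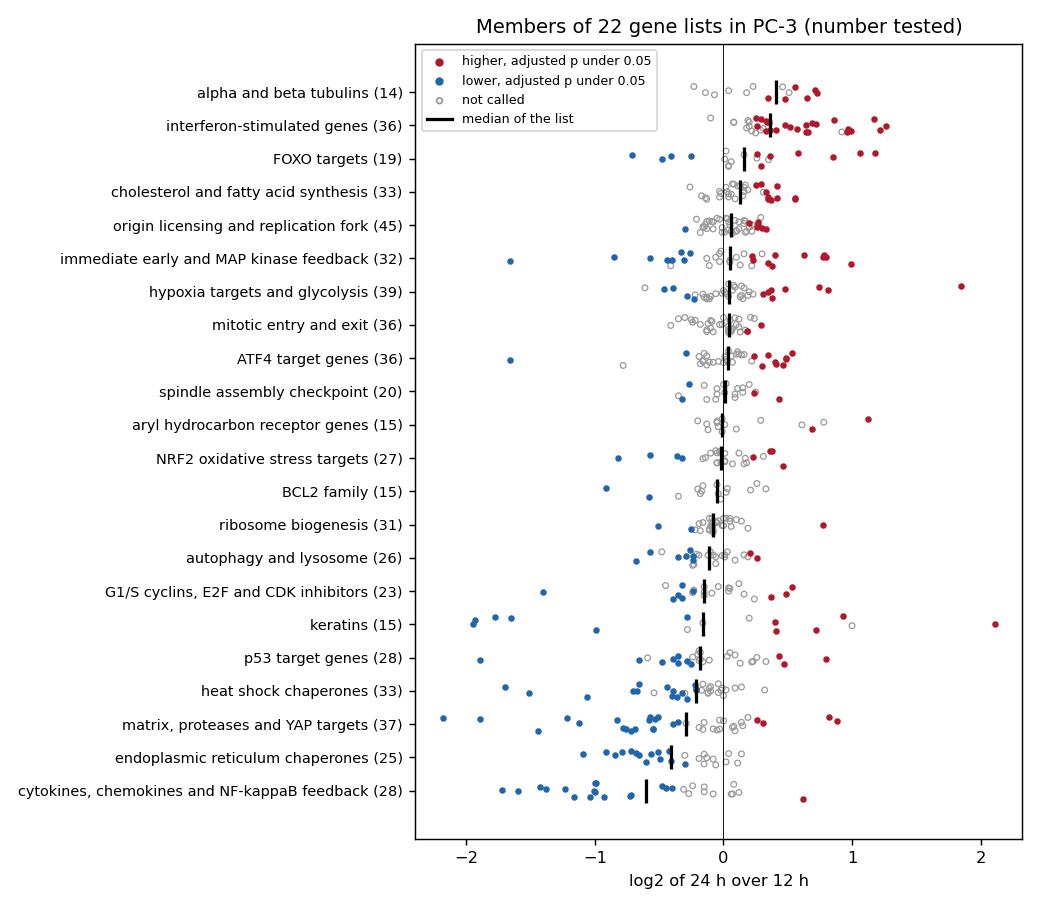
Log2 fold change of 24 h over 12 h of PDA-66 in PC-3 for each member of 22 gene lists, ordered by the list's median (black bar), with the number of members tested in brackets. Red and blue points are members higher and lower at an adjusted p under 0.05 and open points were not called; the cytokine, endoplasmic reticulum, matrix and heat shock lists lie to the left, and the tubulin and interferon lists to the right.

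Interferon-stimulated genes were higher after 24 h. Of 36 members, 23 rose and 0 fell at 0.05 (63.9% called), 8 of them at 0.001, with a median of 0.36, and 35 of 36 had a positive log2 fold change. In the fit with the DMSO samples 14 members were called at 0.05, as were 1390 of all genes, beside 2740 in the fit without them. IFIT3 (chr10:91087064-91137230), a tetratricopeptide protein of the antiviral response, was at 37.2, 35.1 and 34.4 CPM after 12 h and at 83.1, 89.2 and 82.8 CPM after 24 h, with 108 and 118 CPM in DMSO. It rose by 1.26 ± 0.072 (adjusted p = 4.8e-07 by edgeR), to a level between 12 h and DMSO. IFIT2 (1.17 ± 0.078) was at 81.9 to 88.4 CPM after 24 h, above its DMSO level of 72.5 and 74.4 CPM, and IFIT1 (0.96 ± 0.079) likewise, with 53.5 to 58.2 CPM beside 39.3 and 32.1 CPM. The 2'-5'-oligoadenylate synthetase OAS2 (0.97), the membrane protein IFITM1 (0.99), the RNA sensor IFIH1 (0.72) and PARP9 (0.64) rose, and the transcription factors IRF9 (0.48) and STAT2 (0.34) rose by less. IRF1 (-0.10), IFI6 (0.08) and ISG15 (0.36, adjusted p = 0.0829 by edgeR) were not called.

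The list of immediate early genes and feedback inhibitors of MAP kinases held changes in both directions. Of 32 members, 10 rose and 8 fell at 0.05 (56.2% called), with 4 and 3 at 0.001 and a median of 0.05. MYC, the growth-promoting transcription factor, was at 221, 212 and 235 CPM after 12 h and at 395, 370 and 373 CPM after 24 h, with 736 and 797 CPM in DMSO (0.77 ± 0.063, adjusted p = 7.72e-06 by edgeR). The feedback inhibitor SPRY1 was at 43.1, 39.5 and 44 CPM and then at 85.6, 84.2 and 82.6 CPM, with 93.5 and 108 CPM in DMSO (0.99 ± 0.071). SPRY4 (0.78), the ERK phosphatase DUSP6 (0.63) and SPRED2 (0.38) rose, whereas the AP-1 subunits JUN (-0.44) and FOSL1 (-0.33), the phosphatase DUSP1 (-0.40) and KLF2 (-0.85) fell with ATF3. FOS rose by 0.80, but with 13.3, 14.3 and 23.1 CPM it was spread over the 24 h samples, and the DMSO samples had 48.7 and 134 CPM.

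Tubulins, the subunits of microtubules, were higher after 24 h. Of 14 alpha and beta tubulins tested, 6 rose and 0 fell at 0.05 (42.9% called), 5 of them at 0.001, and the median was 0.41. Without P24-3, 6 rose and TUBB6 fell (50% called, beside 34.7% of all genes in the same fit), and the median was 0.18. TUBA1B was at 391, 442 and 397 CPM after 12 h and at 744, 637 and 663 CPM after 24 h (0.73 ± 0.073, adjusted p = 3.29e-05 by edgeR), a range that overlapped with the 784 and 617 CPM of DMSO. TUBB was at 464, 496 and 465 CPM and then at 719, 686 and 699 CPM (0.56 ± 0.057), below 1272 and 1079 CPM in DMSO. TUBA1C (0.71), TUBA1A (0.65), TUBB4B (0.48) and TUBB3 (0.35) also rose, while TUBB6 (-0.14), TUBB2A (-0.07) and TUBB4A (0.04) were not called with all 6 samples. TUBB3 was at 116, 117 and 156 CPM in P24-1, P24-2 and P24-3, and its change was 0.20 without P24-3. It was called at 0.05 by 3 of the 6 fits that left out 1 sample. In the fit with the DMSO samples TUBB3 was not called (adjusted p = 0.0722 by edgeR). Tubulin genes resemble each other in sequence, and 44% of the exon bases of TUBA1B and 22.7% of those of TUBA1C overlap a transcript of the opposite strand, whose reads cannot be told apart from theirs without strand.

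Hypoxia targets and glycolytic enzymes that were called were mostly higher. Of 39 members, 8 rose and 4 fell at 0.05 (30.8% called), with 4 and 0 at 0.001 and a median of 0.04. CA9 (chr9:35673925-35681156), a carbonic anhydrase that hypoxia induces, was at 1.10, 0.976 and 1.24 CPM after 12 h and at 3.91, 3.84 and 4.32 CPM after 24 h, with 43.2 and 54.1 CPM in DMSO (1.85 ± 0.19, adjusted p = 3.25e-05 by edgeR). After the rise it was still far under both DMSO samples, and 35.7% of its exon bases overlap ARHGEF39 on the opposite strand. The stress-responsive gene NDRG1 was at 352, 383 and 402 CPM and then at 580, 638 and 683 CPM (0.74 ± 0.073), with 1718 and 1474 CPM in DMSO. The aldolase ALDOC (0.81 ± 0.10), the kinase PGK1 (0.35) and the MYC antagonist MXI1 (0.48) rose, and the prolyl hydroxylases P4HA2 (-0.46), P4HA1 (-0.28) and EGLN3 (-0.39) fell. GAPDH (0.04), LDHA (0.07), ENO1 (-0.01) and the glucose transporter SLC2A1 (-0.13) were not called.

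The core of the hypoxia response element, ACGTG on either strand, was searched in the same windows. It was found in 17 of 35 members with a promoter (48.6%) and in 21.6% of all promoters. The stretches before the 2 members that rose most, CA9 (chr9:35673678-35673927, plus strand) and ALDOC (chr17:28576896-28577145, minus strand), are shown with the matches in capitals, of which CA9 has 1 and ALDOC 3, since a palindrome counts on both strands.
CA9: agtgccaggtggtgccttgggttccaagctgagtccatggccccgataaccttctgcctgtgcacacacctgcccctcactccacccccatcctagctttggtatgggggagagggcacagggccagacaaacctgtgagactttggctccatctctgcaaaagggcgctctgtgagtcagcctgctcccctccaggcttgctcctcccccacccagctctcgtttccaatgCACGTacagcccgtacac
ALDOC: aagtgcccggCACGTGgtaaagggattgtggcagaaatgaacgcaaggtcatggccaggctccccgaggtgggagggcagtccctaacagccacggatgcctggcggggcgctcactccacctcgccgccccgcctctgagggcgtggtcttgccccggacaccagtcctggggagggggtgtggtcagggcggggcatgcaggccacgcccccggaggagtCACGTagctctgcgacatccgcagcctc
LDHA held 5 matches and was not called, with a log2 fold change of 0.07, and GAPDH held 2 and was at 0.04.

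Of the aryl hydrocarbon receptor genes, 2 of 15 rose and 0 fell at 0.05 (13.3% called, under the 20.6% of all genes). CYP1A1 (chr15:75011883-75017877), a xenobiotic monooxygenase, was at 14.9, 15.3 and 15.5 CPM after 12 h and at 25.0, 23.5 and 24.9 CPM after 24 h (0.69 ± 0.083, adjusted p = 0.00014 by edgeR), with 13.1 and 4.41 CPM in DMSO. In the fit with the DMSO samples it was not called (adjusted p = 0.0763 by edgeR), and 2 of the 6 fits that left out 1 sample called it at 0.001. The aldehyde dehydrogenase ALDH3A1 rose from 18.5, 15.5 and 18.2 CPM to 39.8, 35.6 and 38.3 CPM (1.12 ± 0.091). CYP1B1, the related monooxygenase, was at 111, 104 and 105 CPM and at 110, 109 and 98.5 CPM, beside 11.5 and 5.49 CPM in DMSO, and its log2 fold change of -0.01 ± 0.069 was not called (adjusted p = 0.968 by edgeR). The ADP-ribosyltransferase TIPARP (-0.12) and the repressor AHRR (0.01) were not called either. GCGTG, the core of the receptor's response element, was in 10 of 12 members with a promoter (83.3%) and in 36.3% of all promoters.

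Targets of ATF4, the transcription factor of the amino acid response, were called in 11 of 36 (30.6%), with 9 higher and 2 lower and a median of 0.03. TRIB3, a pseudokinase, was at 124, 131 and 119 CPM after 12 h and at 172, 171 and 182 CPM after 24 h (0.49 ± 0.065, adjusted p = 0.000246 by edgeR). The serine synthesis enzyme PSPH (0.41), the folate enzyme MTHFD2 (0.35), the cystine transporter SLC7A11 (0.46) and ATF4 itself (0.24) rose. ASNS, asparagine synthetase, was at 144, 145 and 124 CPM and at 120, 129 and 116 CPM and was not called (-0.18, adjusted p = 0.116 by edgeR), and CHAC1 was at -0.11. DDIT4, a target of both ATF4 and hypoxia, was at -0.13 and not called. TGATGNAA, the letters searched for these genes, was in 7 of 31 promoters (22.6%) and in 3.67% of all, but in 1 of the 9 called members with a promoter, ATF3.

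FOXO targets were called in 11 of 19 (57.9%), 7 higher and 4 lower, with a median of 0.16. The ubiquitin ligase FBXO32 was at 5.20 to 5.66 CPM after 12 h and 11.1 to 13.3 CPM after 24 h (1.18 ± 0.11, adjusted p = 2.57e-05 by edgeR). KLF9, a zinc finger factor, went from 12.2, 12.9 and 12.6 CPM to 30.4, 28.4 and 19.7 CPM (1.06 ± 0.14), with P24-3 lowest of the 24 h samples. TXNIP, a thioredoxin inhibitor, fell from 109, 93.7 and 101 CPM to 82.4, 72.9 and 73.6 CPM (-0.41 ± 0.078), which was still above the 18 and 17.4 CPM in DMSO. Its paralogue ARRDC4 fell by 0.71.

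Cholesterol and fatty acid genes were higher in 10 of 33 and lower in 0 at 0.05 (30.3% called), with a median of 0.13. The desaturases FADS2 (0.56 ± 0.083) and SCD (0.35 ± 0.056), the acetyl-CoA synthetase ACSS2 (0.56 ± 0.08) and the sterol enzymes FDFT1 (0.42) and FDPS (0.35) rose, of which SCD was not called in the fit with the DMSO samples (adjusted p = 0.131 by edgeR). HMGCS1 (-0.17), an early enzyme of the pathway, was not called. Without P24-3, HMGCS1 and NSDHL fell and 12 members rose (42.4% called, beside 34.7% of all genes in the same fit).

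Oxidative stress, lysosome and p53 target lists held single genes with larger changes. HMOX1, heme oxygenase, was at 59.8, 67.6 and 65.3 CPM after 12 h and 32.7, 35.4 and 41.0 CPM after 24 h (-0.82 ± 0.091, adjusted p = 7.07e-05 by edgeR). SQSTM1, the autophagy receptor p62, was at 908, 966 and 926 CPM and then at 551, 628 and 704 CPM (-0.57 ± 0.079), below 883 and 975 CPM in DMSO, and the protease CTSB changed by -0.68 ± 0.075. In the NRF2 list 4 of 27 rose, among them the glutathione reductase GSR (0.38), and 4 fell (29.6% called), and in the autophagy and lysosome list 2 of 26 rose and 7 fell, among them the lysosomal galactosidase GLA (-0.35), which is 34.6% called. TXNRD1 (-0.06), NQO1 (-0.05) and MAP1LC3B (0.09) were not called.

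Of 28 p53 targets, 3 rose and 8 fell at 0.05 (39.3% called). The cytokine GDF15 was at 170, 177 and 182 CPM after 12 h and 277, 304 and 343 CPM after 24 h (0.80 ± 0.077), with 1019 and 1534 CPM in DMSO. CDKN1A, the CDK inhibitor p21, fell from 90.2, 101 and 96.5 CPM to 71.1, 74.9 and 79.4 CPM (-0.35 ± 0.073, adjusted p = 0.00482 by edgeR), and C12orf5, the regulator TIGAR, by 0.66. In the BCL2 family 2 of 15 fell (13.3% called, beside 20.6% of all genes), the survival gene BCL2A1 (-0.91 ± 0.13) and the BH3-only gene BMF (-0.58 ± 0.19, adjusted p = 0.0494 by edgeR), the latter called at 0.05 by 1 of 6 fits when samples were left out in turn, and MCL1 (-0.16), BCL2L1 (-0.17) and BCL2L11 (-0.04) were not called. Ribosome biogenesis genes were called in 3 of 31 (9.68%), with UTP20 (-0.51) and RRS1 (-0.25) lower and MYC higher.

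Of the cell cycle lists, the share called with all 6 samples was under the 20.6% of all genes for mitotic and replication genes and near it for checkpoint genes. Of 36 genes of mitotic entry and exit, 2 rose and 0 fell at 0.05 (5.56% called), CENPF (0.18 ± 0.058) and the phosphatase CDC25C (0.29 ± 0.092). Of 20 spindle assembly checkpoint genes 2 rose and 2 fell (20% called), the lower ones being the kinesin CENPE (-0.32) and SPDL1 (-0.27), and KNTC1 (0.24) among the higher ones. Of 45 genes of origin licensing and the replication fork 6 rose, such as TYMS (0.33), RRM1 (0.30) and MCM2 (0.20), and MCM5 fell (-0.30), which is 15.6% called. Opposite-strand transcripts overlap 47.9% of the exon bases of TYMS and 23.6% of those of MCM2. Without P24-3, 6 mitotic genes rose and 10 fell (44.4% called), 7 checkpoint genes rose and 3 fell (50%), and 16 replication genes rose and 2 fell (40%), beside 34.7% of all genes in the same fit. Leaving out any other sample gave at most 3 mitotic, 1 checkpoint and 6 replication genes, and 0 in each of the 3 lists without P12-3.

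The 24 h samples differed among themselves in some mitotic genes, of which a few are given here that were chosen for this after their values were seen. Of the 36 mitotic genes, 14 were lowest in P24-1 and highest in P24-3 with P24-2 between (38.9%, beside 29.8% of all genes), and 4 had the reverse order. The median deviation of the 36 genes from their mean was -0.07, 0.01 and 0.06 (log2) in P24-1, P24-2 and P24-3. CDC20, which activates the anaphase-promoting complex, was at 172, 185 and 175 CPM after 12 h and at 89.9, 141 and 188 CPM in P24-1, P24-2 and P24-3, with 53.2 and 93.3 CPM in DMSO. Its log2 fold change was -0.35 ± 0.18 (adjusted p = 0.203 by edgeR) and -0.62 without P24-3. CCNB1, cyclin B1, was at 171, 177 and 148 CPM and at 97.3, 163 and 195 CPM (-0.12 ± 0.18, adjusted p = 0.67), and turned to 0.11 without P24-1. The mitotic kinases PLK1 (69.7, 113 and 148 CPM) and AURKA (84.8, 140 and 160 CPM) kept the same order over the 24 h samples, from P24-1 as the lowest to P24-3.

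Other cell cycle genes had the reverse order, among them 26 of the 45 replication genes (57.8%, beside 26.3% of all genes). POLA1, the catalytic subunit of DNA polymerase alpha, was at 120, 107 and 87.9 CPM in P24-1, P24-2 and P24-3, beside 83.8 to 88.6 CPM after 12 h. CDK1, the mitotic kinase, was at 353, 291 and 230 CPM beside 241 to 285 CPM, and the topoisomerase TOP2A at 474, 441 and 389 CPM beside 363 to 392 CPM. BUB1B, a checkpoint kinase, did not show this spread, with 74.2 to 79.2 CPM after 24 h and 79.3 to 82.0 CPM after 12 h (-0.06 ± 0.065, adjusted p = 0.525 by edgeR). The 24 h samples were also ordered by GC content. Genes of the lowest GC bin lay at a median of 0.0966, 0.0542 and -0.15 (log2) against the group mean in P24-1, P24-2 and P24-3. Those of the highest bin lay at -0.0899, -0.0533 and 0.147. Whether GC content has a part in the order of the cell cycle genes was not tested. Once GC content and gene length were corrected for, 7 of 36 mitotic genes rose and 6 fell, a share near the 36.7% of all genes called with that correction. Of 20 checkpoint genes 7 then rose and 4 fell, and of 45 replication genes 14 rose and 5 fell, both larger shares than that of all genes.

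**Figure D4:**
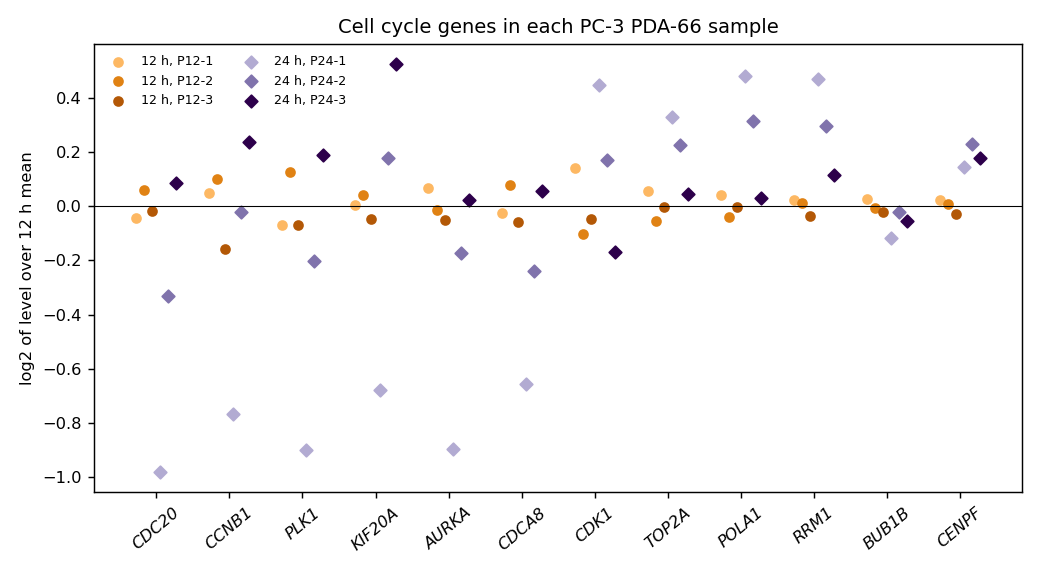
Log2 of the level in each of the 6 PC-3 PDA-66 samples over the mean of the 12 h samples (vertical axis) for 12 cell cycle genes, with circles for 12 h and diamonds for 24 h. P24-1 lies lowest and P24-3 highest in CDC20, CCNB1, PLK1, KIF20A, AURKA and CDCA8, while the order is reversed in CDK1, TOP2A, POLA1 and RRM1, and the 12 h samples stay close to 0.

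G1/S cyclins, E2F factors and CDK inhibitors were called in 9 of 23 (39.1%), with 3 higher and 6 lower and a median of -0.15. CCNE1, cyclin E1, was at 10.6, 9.56 and 10.9 CPM after 12 h and 4.62, 3.05 and 4.12 CPM after 24 h (-1.40 ± 0.15, adjusted p = 4.29e-05 by edgeR), beside 2.52 and 1.42 CPM in DMSO. CCND1, cyclin D1, fell from 634 to 682 CPM to 475 to 529 CPM (-0.39 ± 0.061), under the 690 and 678 CPM of DMSO. The inhibitor CDKN2B rose by 0.53 ± 0.071 and the pocket protein RBL2 by 0.49. TTTGAA, the core of the element of genes expressed late in the cycle, was in 19 of 29 mitotic genes with a promoter (65.5%), in 9 of 16 checkpoint genes (56.2%) and in 15.4% of all promoters.

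Among the other lists, leaving out P24-3 moved several counts at 0.05 by over 1.5 times, beside the 34.7% of all genes called in that fit. BCL2 family genes then numbered 2 higher and 6 lower, ribosome biogenesis genes 1 and 11, lysosome and autophagy genes 2 and 14, and aryl hydrocarbon receptor genes 3 and 1. The p53 targets numbered 6 and 11, the ATF4 targets 11 and 6, and the G1/S list 5 and 9. At 0.001, 13.8% of all genes were called without P24-3. In that fit 13 of 33 heat shock and 16 of 36 interferon genes were called in the direction given above. Of 39 hypoxia genes 7 rose and 5 fell, and of 32 immediate early genes 7 rose and 6 fell. With any other sample left out, 11% to 19.5% of all genes were called at 0.05. The lysosome and autophagy list then had 2 to 8 called members, the NRF2 list 5 without P12-2, P12-3 or P24-2, the p53 list 7 without P12-2 or P12-3, the ATF4 list 7 without P12-3, the cholesterol list 6 without P12-1 or P24-2, the immediate early list 11 without P24-2, and the FOXO list 7 without P12-1, P12-2, P12-3 or P24-2. In the BCL2 family 1 member was called in each of these fits.

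Whether the step from 12 h to 24 h differed between cell lines was tested as an interaction of time and line. Against LNCaP, 0 of 14400 genes differed at 0.001 by edgeR, with 1352 at an unadjusted p under 0.05, and 38 (0.264%) differed at 0.05. Of the 479 genes called in PC-3, 27 differed from LNCaP at 0.05. The PC-3 samples that chose these genes also enter the interaction, so that a share above that of all genes is favoured by the choice. HPGD changed by -0.58 ± 0.19 in LNCaP against 1.64 in PC-3, SPRY1 by -0.19 ± 0.099 against 0.99 and IFIT3 by -0.37 ± 0.19 against 1.26. ATF3 (0.20 ± 0.12 in LNCaP against -1.66) and HSPA5 (0.02 ± 0.10 against -0.84, adjusted p = 0.0437 for the difference by edgeR) lay the other way. The count at 0.001 was 108 without the LNCaP 12 h sample L12-2, 33 with edgeR's likelihood ratio test and 655 with limma voom with sample quality weights, so that a gene not called here may still differ.

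Against the canine line CT1258, matched by gene symbol, 538 of 10822 genes (4.97%) differed at 0.001 and 2358 (21.8%) at 0.05. Leaving out P24-3 gave 1237 genes at 0.001, and leaving out P12-2, P12-3, P24-2, C12-1, C12-2 or C24-2 gave 323 to 353. Of the 385 genes called in PC-3 that had a canine match, 195 differed at 0.05. Here too the choice by the same PC-3 samples favours a share above that of all genes. In the endoplasmic reticulum list, 14 of 19 matched members differed, each with a higher value in CT1258, and the list median was 0.40 there and -0.42 in PC-3. CALR changed by 0.72 ± 0.073 in CT1258 and HSPA5 by 0.81 ± 0.097. In the interferon list 18 of 24 differed, each with a lower value in CT1258 (median -0.79 there and 0.39 in PC-3), such as IFIT3 with -0.71 ± 0.19. IFIT2 had few counts in CT1258, with a mean of 11.2 per sample.

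The other lists differed from CT1258 by less or in both directions. Mitotic genes differed in 22 of 33, of which 19 had a higher value in CT1258 (median 0.43), and checkpoint genes in 9 of 17, 8 of them higher. Replication genes differed in 16 of 41, with 15 lower in CT1258 (median -0.19). ATF4 targets were higher there in 20 of the 21 members that differed (median 0.47) and cholesterol genes lower in all 14 that differed (median -0.25). For the heat shock list, 6 of 24 differed, 3 in each direction, and the medians were -0.26 in CT1258 and -0.12 in PC-3. DNAJB1 fell in both lines, by 0.54 in CT1258. Of 10 matched tubulins 3 differed at 0.05, 2 with a higher and 1 with a lower value in CT1258. TUBB changed by 0.43 ± 0.063 in CT1258 and 0.56 in PC-3, and this difference was not called (-0.13, adjusted p = 0.315 by edgeR). TUBA1B rose by 0.33 ± 0.077 in CT1258 and 0.73 in PC-3, and this difference was called at 0.05 (-0.41, adjusted p = 0.0101 by edgeR).

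**Figure D5:**
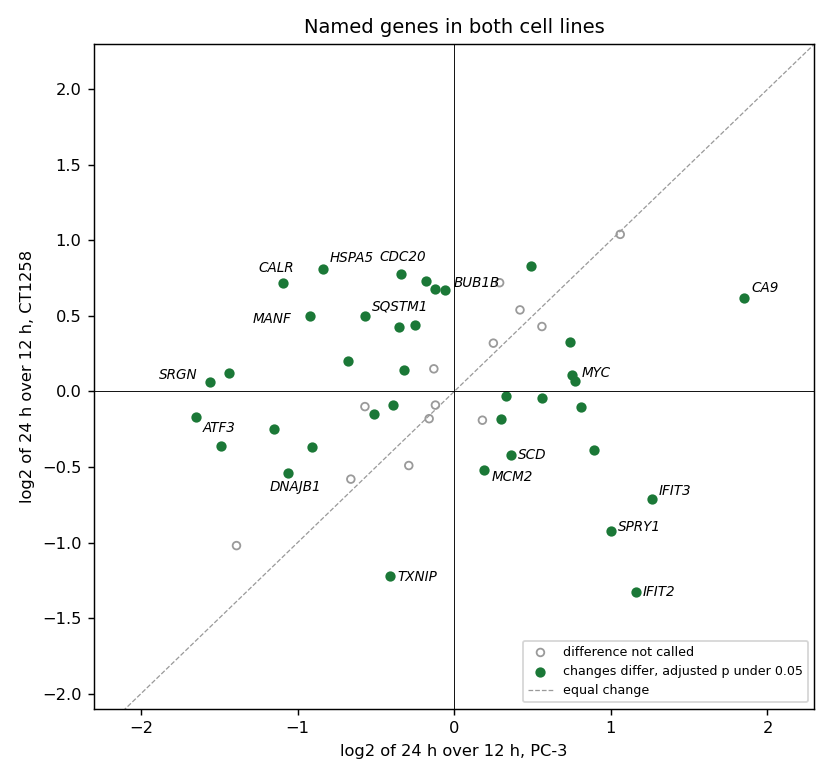
Log2 fold change of 24 h over 12 h of PDA-66 in CT1258 (vertical axis) against that in PC-3 (horizontal axis) for the 50 named genes with a canine match and a mean of at least 10 counts in CT1258. Filled points are genes whose changes differ at an adjusted p under 0.05 and the dashed line marks equal change; CALR, HSPA5 and MANF lie in the upper left part and IFIT2, IFIT3 and SPRY1 in the lower right.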

How the data were processed

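RNA of PC-3 cells after 12 h and 24 h with 15 µM PDA-66 (3 samples each) was compared. By the study's methods, poly(A) RNA was sequenced as single reads, and the authors mapped the reads to hg19 with STAR 2.3.1s (CT1258 with BWA to CanFam3.1) and deposited whole-number counts per gene without normalization. Their own edgeR version was 3.14.0. Strand use in counting is not given in the sources used here. Trailing separators in the P24-3 column were removed. The labels describe 2 of the 12 h samples alike, so that P12-1 and P12-2 are known by group only. The methods call the replicates independent, but the labels name no separate cultures. The p-values set the difference between the groups against the spread between these samples. The columns matched to no sample numbered 0.

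The tools were edgeR 4.0.16 in R 4.3.3, with DESeq2 1.42.0 and limma 3.58.1 for alternatives, and pandas 2.3.3, numpy 2.4.6 and matplotlib 3.10.9 in Python 3.11.15. The 6 samples were filtered with filterByExpr (13300 genes), normalized by TMM, and tested with edgeR's quasi-likelihood F test with Benjamini-Hochberg adjustment. Printed CPM were scaled by TMM over the 8 PC-3 samples, apart from the markers, given per library total. SE is the log2 fold change divided by the root of F. Total counts of 14650839 to 18091755 set the counting error. Lines were compared by the interaction of time and line, with genes matched by symbol. The fits of 24 h against 12 h and of the interaction were tried on simulated counts, in which no sample stood apart as P24-3 did.

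Named were the 12 genes that rose and the 12 that fell most among those called at 0.001 with no overlap and 10 CPM or more on average, up to 3 called members of each of 22 lists with the smallest p (or the member with the highest level), and a fixed set of genes, 94 in all. The members and lists, written from general knowledge, were chosen with earlier results of these data known. Alternatives were other size factors, filters and tests, a fit with the DMSO samples, a replicate block, leaving out each sample, and correcting for GC content and gene length (spline of 4 degrees of freedom, 97.5% of genes). That correction without P24-3 was added after seeing the data. Some members of the lists are not reported here by name. Gene positions and exon overlaps are from the GENCODE annotation lifted to GRCh37, and promoters from RefSeq on GRCh38.p14.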

Additional observations from a re-analysis of the deposited data

Results flagged for a closer look

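For 24 named genes the step from 12 h to 24 h differed between CT1258 and PC-3 at an adjusted p under 0.001 by edgeR's interaction test, and each difference is given as CT1258 minus PC-3 on the log2 scale. The counts are of 2 species with separate annotations, mapped with different aligners, and the part of this in the differences was not tested.

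Genes that rose in PC-3 and were lower or flat in CT1258 came from several lists. CA9 differed by -1.23 (1.85 in PC-3 and 0.62 in CT1258), although it rose in both lines. IFIT3 differed by -1.97 (1.26 and -0.71) and IFIT2 by -2.49 (1.17 and -1.33), the latter with a mean of 11.2 counts in CT1258. SPRY1 differed by -1.92 (-0.92 in CT1258). ALDOC differed by -0.91, MYC by -0.70 and NDRG1 by -0.64, with -0.10, 0.07 and 0.11 in CT1258. The lipid genes ACSS2 and SCD differed by -0.60 and -0.78, and the helicase subunit MCM2 by -0.71. TXNIP, which fell in both lines, differed by -0.81, since it was at -1.22 in CT1258.

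Endoplasmic reticulum chaperones fell in PC-3 and had positive values in CT1258. HSPA5 differed by 1.65 (-0.84 and 0.81), MANF by 1.42 (-0.91 and 0.50) and CALR by 1.81 (-1.09 and 0.72). Secreted and matrix genes that fell in PC-3 were nearer to 0 in CT1258, with differences of 0.90 for IL11, 1.13 for SERPINB2 and 1.62 for SRGN, whose value in CT1258 was 0.06. ATF3 differed by 1.48 (-0.17 in CT1258), SQSTM1 by 1.07 (0.50 in CT1258) and the protease CTSB by 0.88 (0.20 in CT1258).

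Genes not called in PC-3, or called at 0.05 only, also differed. CDC20 differed by 1.12 (0.78 in CT1258), with the 24 h samples of PC-3 spread from 89.9 to 188 CPM. BUB1B differed by 0.73 (0.67 in CT1258), ASNS by 0.91 (0.73 in CT1258) and the ribosome biogenesis gene RRS1 by 0.69 (0.44 in CT1258). No group had 4 or more samples, so single samples were not tested for standing apart.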

How the results depend on the processing

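Of 1692 values of the named genes over 18 alternatives, 1516 kept their direction and side of the threshold, 81 lost the call, 89 gained it and 6 changed sign, 0 of these among the 65 named genes called at 0.001. CYP1B1 (-0.01) was at 0.02 with library size only, 0.04 with limma voom with sample quality weights and 0.01 with the GC and length correction without P24-3, and ranged from -0.04 to 0.05 over the fits that left out 1 sample. CCNB1 (-0.12) ranged from -0.35 to 0.11.

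The 479 genes at 0.001 became 1092 with no filter, 1367 with the edgeR likelihood ratio test, 933 with the DESeq2 Wald test, 2571 with voom, 1338 with the exact test, 194 in the fit on the 3 PC-3 groups, 1621 with the GC and length correction and 2269 with that correction without P24-3, and 123 changed by 1 or more on the log2 scale. Leaving out 1 sample gave 163 (without P24-2) to 1853 (without P24-3). At 0.05, the 2740 genes became 5919 with voom, 1390 in the 3-group fit, 4876 with the correction, 5218 with it and without P24-3, and 1475 to 4675 with 1 sample left out. DESeq2 size factors gave 482 and library size only 487. The cause of these differences was not tested.

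With the replicate block, 1505 genes were called at 0.001. The pairing could not be shown, since samples of the same number correlated in their deviations by 0.232, -0.106 and 0.102 and the numbers of P12-1 and P12-2 are unclear. The block gave 0 differences from LNCaP and 586 from CT1258.

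Against LNCaP, 33 genes differed with the likelihood ratio test, 655 with voom, 38 at 0.05 and 0 to 108 with 1 sample left out. Against CT1258, 979, 1522 and 2358 differed in the same order, and 323 to 1237 with 1 sample left out. Of 396 counts of list members (22 lists under 18 alternatives), 289 lay within 1.5 times of the reported count and 107 beyond. Depth and the spread between 3 samples a group limit what could be called, so a gene not called may still differ.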
